A study of Mus musculus with 6 samples.

Results

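Interferon gamma, 3 interferon regulatory factors and the signal transducer Stat2 were followed across 6 arrays of mouse macrophages. The genes were taken as all probes whose symbol in the platform's probe table is Irf1, Irf7, Irf8, Stat2 or Ifng. All 5 genes were on the array, each with 1 probe, among 8841 genes that had a named probe. The cells were primary macrophages elicited with thioglycollate, an irritant that draws macrophages in, from 6-week-old female C57BL/6 mice, and mRNA was measured from total RNA with biotin-labelled cRNA. The 6 groups, with 1 array each, were TSA + GW3965 + LPS, GW3965 + LPS, TSA + LPS, LPS, TSA and No treatment. Lipopolysaccharide (LPS) is the cell wall component of bacteria that Toll-like receptor 4 senses. Trichostatin A (TSA) inhibits histone deacetylases, and GW3965 activates the liver X receptors, nuclear receptors for oxysterols. The labels give neither doses nor times and do not say how many animals the RNA of an array came from. The question, from the series title, is what TSA does to the induction of inflammatory genes by LPS.

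In macrophages, LPS sets off an interferon loop. Signals from the LPS receptor switch on type I interferon genes, the secreted interferon acts back on the cell, and a complex that holds Stat2 and Irf9, called ISGF3, then binds the interferon-stimulated response element (ISRE) of antiviral genes. Irf7 is itself such a target and amplifies interferon production. Interferon gamma, the product of Ifng, is known mainly as a cytokine of T cells and natural killer cells. It acts on macrophages through its receptor and the gamma-activated site (GAS) of target promoters, and Irf1 is a classical gene under that site. Irf8 is a lineage factor of monocytes, macrophages and dendritic cells and is also inducible by interferon gamma.

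The promoters are shown because all 5 genes were higher with LPS and because the family is known for GAS and ISRE elements. The letters searched were TTCNNNGAA for GAS, GAAA, any 2 bases and GAAA for ISRE, GGG, any 2 bases and TTTCC for a kappa B site, and TGANTCA for AP-1, on both strands, in the 250 bases before and 50 bases after each RefSeq start of build GRCm38.p6. Capitals mark the matches.
Irf1 promoter, chr11:53769764-53770063, + strand: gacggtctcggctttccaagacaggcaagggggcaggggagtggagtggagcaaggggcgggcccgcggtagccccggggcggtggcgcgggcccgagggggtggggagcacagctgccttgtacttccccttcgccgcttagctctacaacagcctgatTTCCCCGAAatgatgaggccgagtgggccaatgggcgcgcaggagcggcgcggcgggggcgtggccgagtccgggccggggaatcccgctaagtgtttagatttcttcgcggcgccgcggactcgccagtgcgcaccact
Irf8 promoter, chr8:120736108-120736407, + strand: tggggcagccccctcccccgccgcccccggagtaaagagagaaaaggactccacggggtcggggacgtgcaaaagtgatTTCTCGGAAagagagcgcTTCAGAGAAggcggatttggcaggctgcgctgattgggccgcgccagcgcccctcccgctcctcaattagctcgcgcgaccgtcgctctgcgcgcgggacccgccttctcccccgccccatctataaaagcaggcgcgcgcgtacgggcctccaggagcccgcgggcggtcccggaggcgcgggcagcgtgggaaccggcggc
Stat2 promoter, chr10:128270248-128270547, + strand: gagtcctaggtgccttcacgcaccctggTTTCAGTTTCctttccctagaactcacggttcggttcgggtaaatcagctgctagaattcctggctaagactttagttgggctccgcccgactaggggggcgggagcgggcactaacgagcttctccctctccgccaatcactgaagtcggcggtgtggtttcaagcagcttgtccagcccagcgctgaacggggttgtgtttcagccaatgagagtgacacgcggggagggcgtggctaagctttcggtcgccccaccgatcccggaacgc
Ifng promoter, chr10:118440796-118441095, + strand: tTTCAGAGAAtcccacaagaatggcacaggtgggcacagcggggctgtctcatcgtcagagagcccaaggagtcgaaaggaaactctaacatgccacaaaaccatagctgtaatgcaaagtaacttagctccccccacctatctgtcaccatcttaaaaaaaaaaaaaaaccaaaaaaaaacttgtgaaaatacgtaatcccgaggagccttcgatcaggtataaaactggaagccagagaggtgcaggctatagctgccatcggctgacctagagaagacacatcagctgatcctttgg

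Irf1 held 1 GAS match, beginning 90 bases before the start. Irf8 held 2 GAS matches, at 171 and 153 bases before its first start, and Ifng held 1 at 249 bases before. Stat2 held an ISRE match on the opposite strand at 222 bases before the start. The single Irf7 promoter in the table, chr7:141266375-141266674 on the - strand, had no match to any of these letters, nor did the second listed start of Irf1 or of Irf8. Among 32851 promoters of the same length, 8.30% held the GAS letters, 3.44% the ISRE letters, 1.63% the kappa B letters and 7.81% the AP-1 letters. No match overlapped another. A match describes the letters of a window and not binding. Only these exact letters were sought, so the lack of a match does not show that a site is absent.

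Values are intensities on a linear scale as deposited, already scaled so that each array's median lay close to 1, between 0.981 and 0.987. Values under an array's 25th percentile, its floor at 0.198 to 0.245, were set to that floor before log2 was taken. Levels are compared only within a gene, since probes differ in brightness. A gene was tested when it stood at or above the median of at least 1 array, which 5080 genes did. Irf1, Irf7 and Irf8 stood above the median on all 6 arrays. Stat2 did so on 4, all with LPS, and Ifng on 2, LPS and GW3965 + LPS. Stat2 was thus tested only through arrays with LPS, and Ifng only through the arrays with LPS and without TSA, so that a difference with LPS, and for Ifng one with TSA, helped to bring them into the test. A gene is said to have risen or fallen when limma gave a Benjamini-Hochberg adjusted p under 0.05 over the 5080 genes. The fit has no replicate arrays. A gene's own spread comes from how far its arrays depart from additive effects of LPS, GW3965 and TSA, with 2 residual degrees of freedom. limma combines it with an intensity trend over all tested genes, which carries 16.9 prior degrees of freedom. The SE, the adjusted p and the moderated residual SD of a gene thus rest mostly on that trend.

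Ifng, the interferon gamma gene, was the member most lowered by TSA once LPS was present. Its intensity was 0.732 in TSA + GW3965 + LPS, 2.00 in GW3965 + LPS, 0.900 in TSA + LPS, 3.48 in LPS, 0.0669 in TSA and 0.267 in No treatment. The LPS arrays without TSA were the highest, the LPS arrays with TSA lay between, and the arrays without LPS were lowest. The TSA array was under its floor of 0.228. TSA + LPS and TSA + GW3965 + LPS stood closer to each other, at a log2 gap of 0.30, than the moderated residual SD of the gene, 0.38. No treatment and TSA, with the floor applied, were also closer than that. Ifng was 13.1-fold higher in LPS than in No treatment. Comparing TSA + LPS with TSA gave at least 3.94-fold, a pair in which neither array reached its median.

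Stat2, a signal transducer of the type I interferon response, was highest in LPS alone. Its intensity was 2.77 in TSA + GW3965 + LPS, 2.36 in GW3965 + LPS, 2.45 in TSA + LPS, 4.66 in LPS, 0.475 in TSA and 0.691 in No treatment. All 4 arrays with LPS lay above both arrays without it, with a 3.41-fold step from the lowest of them to No treatment. The LPS array stood 1.68-fold over the next, while the other 3 LPS-treated arrays differed by less than the moderated residual SD of 0.31 from one to the next.

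Irf1, an early transcription factor of the interferon gamma response, split the arrays by LPS alone. Its intensity was 141 in TSA + GW3965 + LPS, 143 in GW3965 + LPS, 158 in TSA + LPS, 146 in LPS, 40.2 in TSA and 23.2 in No treatment. The 4 arrays with LPS lay within 1 moderated residual SD (0.25) from one to the next in order, and a 3.50-fold step separated the lowest of them from TSA. Without LPS, the TSA array was 1.73-fold higher than No treatment.

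Irf7, the factor that amplifies type I interferon production, separated the arrays with LPS from those without by a wide step. Its intensity was 160.5 in TSA + GW3965 + LPS, 258 in GW3965 + LPS, 241 in TSA + LPS, 433 in LPS, 31.3 in TSA and 31.4 in No treatment. Among LPS-treated cells it was highest with LPS alone, similar with either GW3965 or TSA added, and lowest with both. TSA and No treatment were level, at a log2 gap of 0.0038 against a moderated residual SD of 0.25.

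Irf8, the myeloid lineage factor, was the member whose LPS and non-LPS arrays overlapped. Its intensity was 2.56 in TSA + GW3965 + LPS, 3.61 in GW3965 + LPS, 1.87 in TSA + LPS, 6.58 in LPS, 1.34 in TSA and 2.10 in No treatment. TSA + LPS stood below No treatment. The neighbours TSA + GW3965 + LPS, No treatment and TSA + LPS lay less than the moderated residual SD of 0.31 apart from one to the next.

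**Figure D1:**
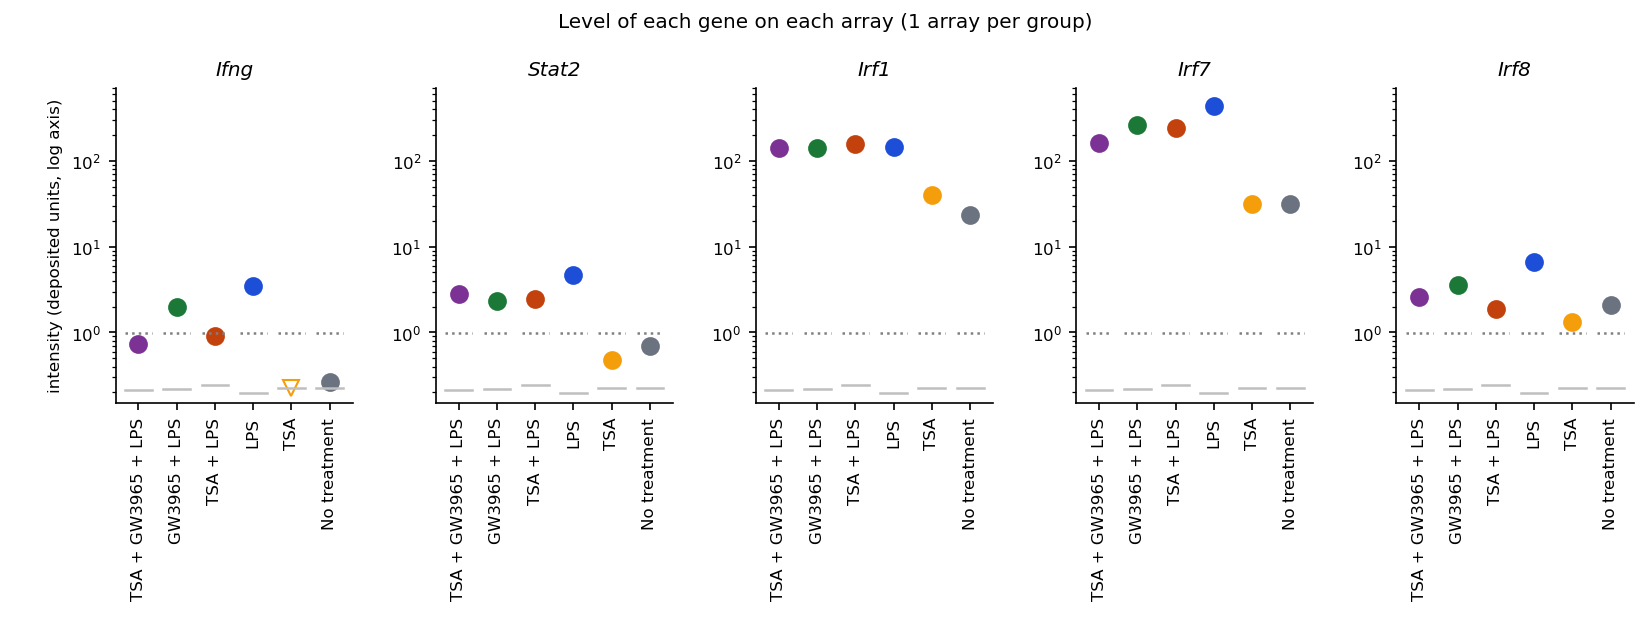
Intensity of each gene (log axis, deposited units) on each of the 6 arrays, with the array's floor as a grey line and its median as a dotted line; the open triangle is Ifng in TSA, drawn at the floor because it was below it. Levels are not compared between panels. Irf1 was between 141 and 158 on all 4 arrays with LPS, while Irf7, Irf8, Stat2 and Ifng were highest in LPS alone.

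LPS raised all 5 genes in the additive fit. On the log2 scale the rise was 3.36 for Irf7 (SE 0.25, adjusted p = 4.07e-09). Irf1 rose by 2.31 (SE 0.25, adjusted p = 8.99e-07) and Irf8 by 1.07 (SE 0.31, adjusted p = 0.0192), each higher in 2 of 2 pairs. These genes passed the level filter on every array, and over all tested genes 12.3% rose with LPS and 7.11% fell. Stat2 rose by 2.56 (SE 0.31, adjusted p = 3.38e-06) and Ifng by 2.84 (SE 0.38, adjusted p = 1.4e-05), also in 2 of 2 pairs. The Ifng estimate depends on the floor under its TSA array and was 3.56 with the floor at the 10th percentile. Both kept their calls when no gene was filtered out. Quantile normalization turned the 626 genes that rose and 361 that fell with LPS, over all genes, into 543 and 557, and all 5 members still rose. Without the LPS array the Irf8 estimate was 0.45 (adjusted p = 0.34), and without the No treatment array it was 0.81 (adjusted p = 0.258). With values floored at the array median, Irf8 and Ifng did not pass, with adjusted p of 0.106 and 0.172.

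The LPS difference was set side by side in cells with and without TSA, in pairs that share no array. For Irf7 the ratio was 7.68-fold in TSA + LPS over TSA, and 13.8-fold in LPS over No treatment. Irf1 was 3.93-fold higher with TSA and 6.29-fold without, and Stat2 5.16-fold and 6.75-fold. Irf8 was 1.40-fold higher with TSA and 3.14-fold without. In LPS against No treatment all 5 genes were at least 2-fold higher, as were 14.0% of measured genes, while 6.05% were lower by that much. In TSA + LPS against TSA 3 of 4 measured members were, against 9.20% of measured genes, with 6.37% lower. For Ifng the ratio with TSA is only a bound. No member passed for the LPS by TSA term. That term set the mean of the 2 TSA pairs with LPS, including the pair with GW3965, against TSA over No treatment. It is therefore not the plain difference of the folds above, and for Stat2 its sign was opposite to theirs. The estimate was -1.47 for Ifng (95% interval -2.77 to -0.18, limma adjusted p = 0.859), but -0.039 with the floor at the 10th percentile, so its size is set by the floor under the TSA array. It was -0.75 for Irf1 (-1.62 to 0.13), -0.76 for Irf7 (-1.65 to 0.13) and -0.51 for Irf8 (-1.60 to 0.59), and for Stat2 it was 0.19 (-0.97 to 1.36). limma called 12 of 5080 genes for this term, 0.0394% higher and 0.197% lower, and 255 had an unadjusted p under 0.05, among them Ifng alone of the 5.

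TSA lowered Ifng and Irf8 past the threshold and not the other members. Over the 3 pairs with and without TSA, Ifng fell by 1.21 log2 units (SE 0.31, adjusted p = 0.0125) and Irf8 by 0.99 (SE 0.25, adjusted p = 0.0121), each lower in 3 of 3 pairs. With no gene filtered out, Ifng had the same estimate and an adjusted p of 0.000471, with an error then set wholly by the intensity trend. For Ifng the pair without LPS lay under the median on both arrays, and its size was set by the floor under TSA. With the floor at the 10th percentile the Ifng estimate was -1.69. Over all 5080 tested genes 557 rose with TSA and 383, or 7.54%, fell. Irf7 was lower in 3 of 3 pairs with a mean of -0.51 (SE 0.20), which did not pass (adjusted p = 0.0856). It passed after quantile normalization (adjusted p = 0.0135) and cyclic loess (adjusted p = 0.0144). Leaving out the TSA array or the No treatment array removes the pair without LPS, in which Irf7 was level. Either way the estimate was -0.77, the mean of the pairs with LPS, so neither is a check on the mean of 3 pairs. Stat2 did not pass at -0.41 (SE 0.25, adjusted p = 0.281), nor did Irf1 at 0.30 (SE 0.21, adjusted p = 0.348). Without the LPS array neither Ifng nor Irf8 passed, at -0.84 (adjusted p = 0.0924) and -0.57 (adjusted p = 0.0771). Without the TSA + LPS array Irf8 was again at -0.57 (adjusted p = 0.0733). With values floored at the array median neither passed. In TSA against No treatment, 0 of 3 measured members differed by 2-fold, while 6.98% of measured genes were higher and 4.69% lower by that much.

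With LPS present, the 2 pairs differed in size for most members. Ifng was 3.87-fold lower in TSA + LPS than in LPS and 2.73-fold lower in TSA + GW3965 + LPS than in GW3965 + LPS. Irf8 was 3.52-fold lower in the pair without GW3965 and 1.41-fold lower in the pair with it. Irf7 was 1.80-fold and 1.61-fold lower. Stat2 was 1.90-fold lower without GW3965 and 1.18-fold higher with it. Irf1 was 1.08-fold higher and 1.01-fold lower, the smallest differences of the 5. By size alone, Ifng and Irf8 were at least 2-fold lower in the first pair, as were 9.55% of measured genes, with 7.57% higher. In the second pair Ifng was, against 1.13% of measured genes, with 4.83% higher.

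The mean of these 2 pairs was tested in the fit that carries the LPS by TSA term. Ifng fell by 1.70 (SE 0.38, adjusted p = 0.000292), Irf8 by 1.16 (SE 0.32, adjusted p = 0.00592) and Irf7 by 0.77 (SE 0.26, adjusted p = 0.0321), where 5.53% of all tested genes fell and 7.44% rose. With no gene filtered out the adjusted p for Ifng was 0.000287. Irf1 had an estimate of 0.05 (95% interval -0.46 to 0.55), which was -0.13 after quantile normalization and -0.14 after cyclic loess, and Stat2 of -0.35 (-1.02 to 0.33). This fit leaves 1 residual degree of freedom and takes its error wholly from the intensity trend over genes, so a gene's own disagreement between pairs hardly enters. It called Parp14, an ADP-ribosyltransferase induced by interferon, although that gene read 0.0878 in TSA + LPS and 7.83 in LPS but 6.70 in TSA + GW3965 + LPS and 1.10 in GW3965 + LPS. Irf7 did not pass without the intensity trend (adjusted p = 0.103) or without a level filter (adjusted p = 0.0511).

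**Figure D2:**
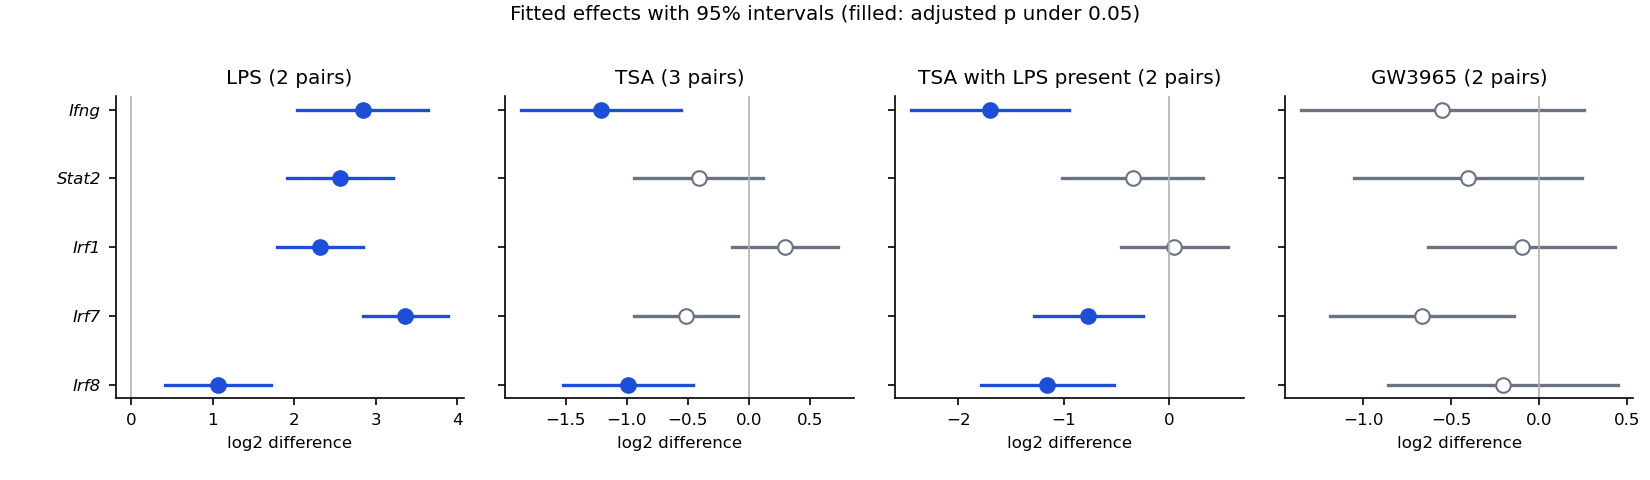
Fitted log2 differences (points) with 95% intervals (bars) for LPS, TSA, TSA with LPS present and GW3965; filled points passed at an adjusted p under 0.05. All 5 genes rose with LPS, Ifng and Irf8 fell with TSA, Irf7 joined them where LPS was present, and none passed for GW3965.

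GW3965 gave no call among the 5 genes. In cells without TSA, all 5 were lower in GW3965 + LPS than in LPS. Stat2 was 1.98-fold lower, Irf8 1.82-fold, Ifng 1.74-fold and Irf7 1.68-fold, and Irf1 was 1.02-fold lower. None was 2-fold lower, as were 1.25% of measured genes, with 0.476% higher. At least 1.5-fold lower were 4 members and 7.18% of measured genes, with 2.83% higher. In TSA + GW3965 + LPS against TSA + LPS, Irf7 differed by -0.58 on the log2 scale, Irf1 was 1.12-fold and Ifng 1.23-fold lower, and Irf8 was 1.37-fold and Stat2 1.13-fold higher. None of 4 measured members differed by 2-fold there, as 1.75% of measured genes did upward and 0.577% downward. These comparisons, TSA + LPS against LPS and LPS against No treatment share arrays, so a high reading on the LPS array enters several of them. In the additive fit the mean for Irf7 was -0.67 (95% interval -1.19 to -0.14, limma adjusted p = 1.0), lower in 2 of 2 pairs. The intervals of the others included 0, from -1.35 to 0.25 for Ifng, -1.05 to 0.24 for Stat2, -0.86 to 0.45 for Irf8 and -0.63 to 0.43 for Irf1. limma called 4 of 5080 genes for GW3965, 0.0591% higher and 0.0197% lower, and 140 had an unadjusted p under 0.05, among them Irf7 alone of the 5. Without the TSA + LPS array Irf7 passed, at -0.92 (adjusted p = 0.0498).

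**Figure D3:**
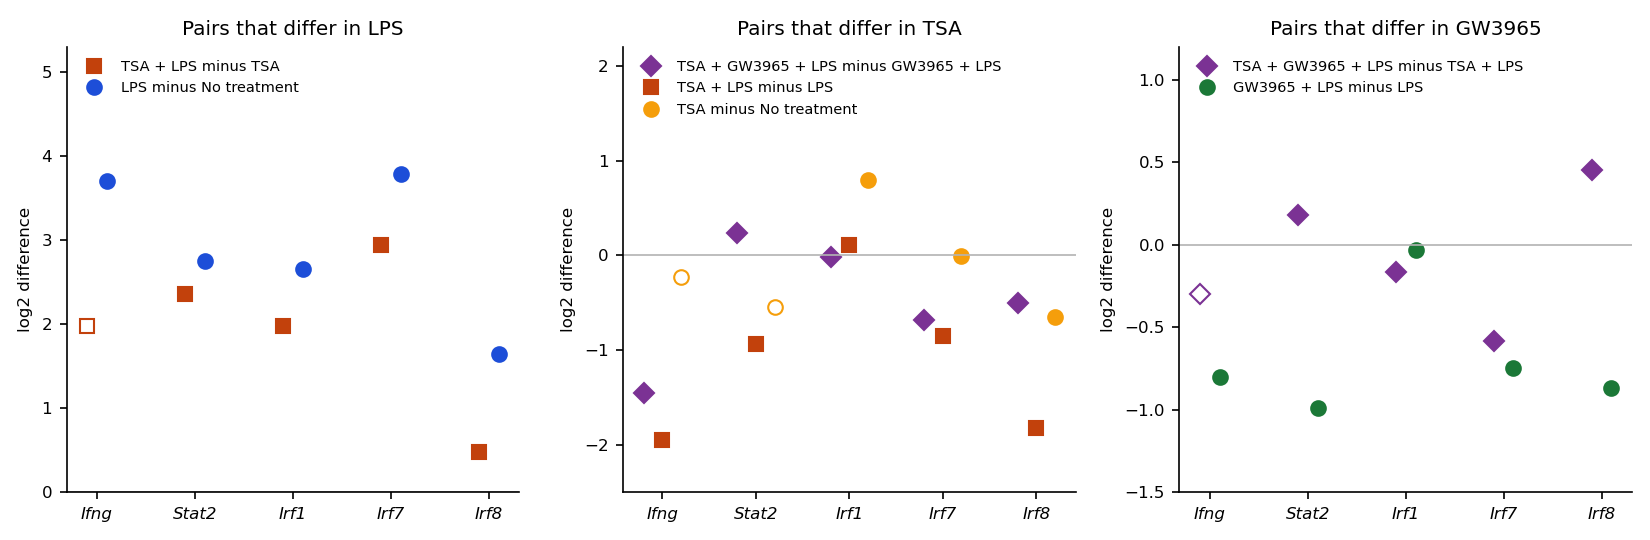
Log2 difference of each gene in the pairs of arrays that differ in LPS (left), TSA (middle) or GW3965 (right), 1 array each; open symbols are pairs in which the brighter array was under its median. The LPS differences of Stat2, Irf1, Irf7 and Irf8 were smaller with TSA present than without, that of Ifng with TSA is only a lower bound, and Irf8 and Stat2 changed side between the GW3965 pairs.

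The Ifng values lie beside the markers of lymphocytes, since in bulk RNA fewer cells of a type and less RNA per cell cannot be told apart. Of 14 T cell markers 11 were on the array, and their summed intensity was 4.91 in TSA + GW3965 + LPS, 5.42 in GW3965 + LPS, 6.75 in TSA + LPS, 5.27 in LPS, 6.51 in TSA and 6.85 in No treatment. The T cell receptor subunit Cd3e and the coreceptor Cd8a were under the floor on all 6 arrays. Cd4, at 1.17 to 2.16, and Cd2, at 1.01 to 2.38, stood above the median on all 6 arrays. Cd3d read 1.65 in TSA + LPS and 0.692 in No treatment. Of 12 natural killer cell markers 9 were on the array. Their sum was 44.7 in TSA + GW3965 + LPS, 48.1 in GW3965 + LPS, 67.3 in TSA + LPS, 48.8 in LPS, 32.3 in TSA and 29.5 in No treatment. The cytotoxic genes Prf1 and Nkg7 were under the floor on all 6 arrays, and the protease gene Gzma and the activating receptor Klrk1 made up most of the sum. Klrk1 rose with LPS by 4.75 (SE 0.30) and read 19.7 in TSA + LPS against 21.9 in LPS. The part of these cells in the Ifng readings was not tested. All 7 macrophage markers on the array stood at or above the median on each array except Adgre1, the F4/80 antigen, at 0.730 in No treatment. Lyz2, the macrophage lysozyme, read between 729 and 1050.1.

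Upstream of Ifng, the cytokines that induce it were higher with LPS. Of 7 listed, 4 were on the array and all 4 rose, where the median over the 4 was 3.49 and over all tested genes 0.03. Il12a, a subunit of interleukin 12, rose by 6.02 (SE 0.31), Il15 by 3.53, Il18 by 3.45 and Ebi3, a subunit of interleukin 27, by 1.40. With TSA over 3 pairs Il12a fell by 1.23 (SE 0.25, adjusted p = 0.0028), Il15 rose by 0.65 (SE 0.22, adjusted p = 0.046), and Il18 and Ebi3 did not pass. Il12a read 21.8 in TSA + GW3965 + LPS, 63.3 in GW3965 + LPS, 20.2 in TSA + LPS, 71.6 in LPS, 0.525 in TSA and 0.659 in No treatment. Both LPS arrays with TSA were thus lower than both without, as they were for Ifng and Ebi3 but not for Il18 or Il15. A link between these cytokines and the Ifng readings was not tested. Of 18 listed interferon genes other than Ifng, Ifna7 was on the array, with an LPS estimate of 0.34 (adjusted p = 0.52). Ifnb1 was not analysed here.

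Receptor chains gave no call for LPS, and 2 kinases rose. Of 6 receptor chains 4 were on the array and 3 were tested. Ifnar1 and Ifngr1, the signalling chain of the type I receptor and the ligand-binding chain of the gamma receptor, had LPS estimates of 0.74 (SE 0.28, adjusted p = 0.0707) and -0.90 (SE 0.33, adjusted p = 0.0644). Il10rb, shared by the interferon lambda and interleukin 10 receptors, fell with TSA by 1.12 (SE 0.24, adjusted p = 0.00386). Of 3 Janus kinases, Jak2 rose with LPS by 2.94 (SE 0.29) and Tyk2 by 0.96 (SE 0.27, adjusted p = 0.0139), and Jak3 did not pass. TSA moved none of the 3 past the threshold.

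The other members of the STAT and IRF families followed Stat2 and the 3 factors only in part. Of 5 other STAT genes, Stat5a rose with LPS by 1.35 (SE 0.30) and Stat5b by 1.36 (SE 0.40). Stat4, the transducer of interleukin 12 signals in lymphocytes, rose with TSA by 1.99 (SE 0.26, adjusted p = 5.2e-05). It read 2.29 in TSA + GW3965 + LPS, 0.672 in GW3965 + LPS, 2.34 in TSA + LPS, 0.713 in LPS, 2.19 in TSA and 0.390 in No treatment. All 3 arrays with TSA were above all 3 without. Stat6, the transducer of interleukin 4, fell with TSA by 0.85 (SE 0.22). Of 5 other IRF genes 4 were tested, and 1 rose with LPS, namely Irf9, the DNA-binding part of ISGF3, by 0.85 (SE 0.27, adjusted p = 0.0325). Irf3, which carries the first interferon signal without needing new synthesis, had an LPS estimate of 0.19, Irf5 of 0.48 and Irf4 of -0.27, none of which passed, and TSA gave no call among the 4.

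Downstream, genes of the ISGF3 type mostly rose with LPS. Of 20 on the array, 19 rose with LPS, with a median of 3.82, where 12.3% of all tested genes rose. Ifit1, which binds foreign RNA, rose by 7.02 (SE 0.31), the antiviral GTPase Mx1 by 6.89 and Rsad2, the antiviral enzyme viperin, by 6.80. With TSA over 3 pairs 2 fell, the ubiquitin ligase Herc6 by 1.0 (SE 0.23) and the RNA-editing enzyme Adar by 0.85, 0 rose, and the median was 0.03 against 0.01 over all tested genes. With LPS present 4 of the 20 fell and 0 rose, where 5.53% of all tested genes fell. Of 32 genes of the Irf1 and interferon gamma type 31 were tested, and 23 rose with LPS, with a median of 2.06, led by the chemokines Cxcl10 at 7.67 and Cxcl11 at 6.17 and the costimulatory receptor Cd40 at 5.79. The class II antigen presentation genes H2-Aa, H2-Ab1 and H2-Eb1 did not pass, with LPS estimates of 0.13, 0.21 and -0.20.

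The gamma type targets moved both ways with TSA. Over 3 pairs 5 rose and 6 fell. Cxcl11 rose by 1.18 (SE 0.28, adjusted p = 0.00672) and the interferon-inducible GTPase Tgtp1 by 1.13 (SE 0.27, adjusted p = 0.00844), while the peptide transporter Tap1 fell by 0.88 and Cybb, a subunit of the phagocyte oxidase, by 0.73. Socs1, the feedback inhibitor of Janus kinases, fell by 0.79. With LPS present 1 rose, Cxcl11, and 8 fell, with a median of -0.25 against 0.00 over all tested genes. Of all tested genes 7.44% rose and 5.53% fell there. For GW3965, Cxcl10 fell by 1.97 (SE 0.29, adjusted p = 0.00194) and no other gene of the pathway lists passed. Cxcl10 read 18.9 in TSA + GW3965 + LPS, 24.7 in GW3965 + LPS, 52.4 in TSA + LPS, 136.5 in LPS, 0.370 in TSA and 0.467 in No treatment.

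**Figure D4:**
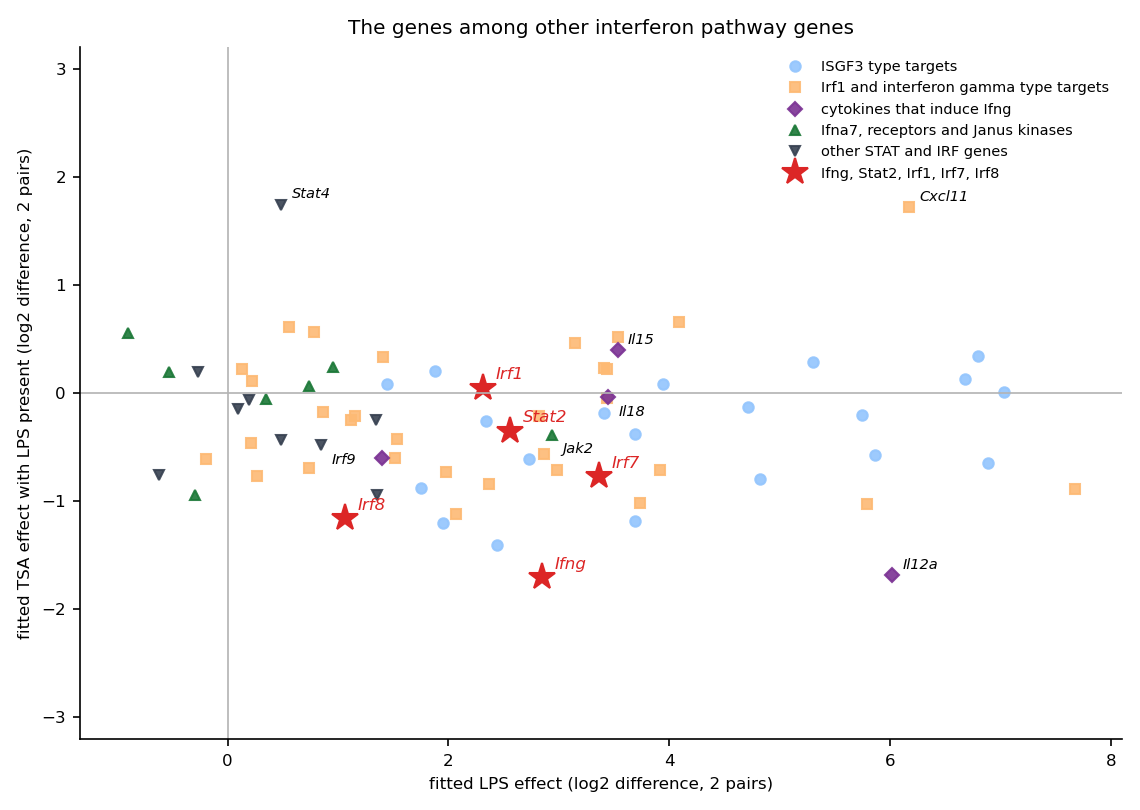
Fitted LPS effect (x axis, log2) against fitted TSA effect with LPS present (y axis, log2) for Ifng, Stat2, Irf1, Irf7 and Irf8 (stars) and the other tested genes of the interferon lists (symbols by list). Ifng lies lowest of the 5 at -1.70, near Il12a at -1.68, and Irf1 lies at 0.05.

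Genes with the most similar profile were sought for each member as the highest Pearson r of log2 values over the 6 arrays, among the 5080 tested genes. The values describe profiles that share arrays and are ranked from many genes. For Ifng these were Ccl19, Trip13, Nfya, Vnn3 and Il22, with r from 0.994 to 0.999. The chemokine Ccl19 and the cytokine Il22 read 2.24 and 1.15 in LPS. They read 0.0254 and 0.0518 in TSA and 0.197 and 0.145 in No treatment. All these TSA and No treatment values were under the floor and were set to it. For Stat2 they were Lgals9, Pdpn, Psmb9, Trim34a and Il31, with r from 0.992 to 0.997. Lgals9, which encodes galectin-9, read 48.5 in TSA + GW3965 + LPS, 41.3 in GW3965 + LPS, 42.6 in TSA + LPS, 75.8 in LPS, 13.1 in TSA and 15.2 in No treatment.

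For Irf1 the nearest profiles were H3f3b, Nt5c3, Mug1, Klhdc10 and Ifi204, with r from 0.997 to 0.998. H3f3b encodes a replacement histone. For Irf7 they were Tlr6, Pcdhb1, Lpo, Igtp and Zfand3, with r from 0.996 to 0.998. Igtp, an interferon-inducible GTPase, read 11.2 in TSA + GW3965 + LPS, 14.1 in GW3965 + LPS, 14.2 in TSA + LPS, 24.6 in LPS, 2.33 in TSA and 2.82 in No treatment. For Irf8 they were Mre11a, Gnas, Stx2, Clu and Hk2, with r from 0.986 to 0.991. Hk2, a hexokinase of glycolysis, read 14.8 in LPS and between 5.42 and 9.44 on the other arrays. Among the 5 genes themselves r ran from 0.53 for Irf1 and Irf8 to 0.97 for Irf7 and Stat2.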

How the data were processed

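Total RNA (0.5 ug per array, per the labels) from 6 samples in 6 groups was read on 1-colour arrays. The deposited values are linear intensities for 10076 probes, and the authors' scaling and background method are not given in the sources used here. Of the probes 8983 carry 1 gene symbol in the platform annotation, 1 carries several and 1092 none, and the probe with the highest mean stood for a gene that had more than 1. Intensities were floored at the 25th percentile and log2-transformed. limma 3.58.1 in R 4.3.3 fitted additive terms for LPS, GW3965 and TSA (eBayes with intensity trend, 2 residual and 16.9 prior degrees of freedom), and a second fit added an LPS by TSA term. A gene counted as measured in a pair when its brighter array reached the median, and a 2-fold difference was noted without a test. The additive fit was tried on simulated data with purely additive effects and independent error. The fit with the LPS by TSA term was not. Figures used matplotlib 3.10.9 in Python 3.11.15.

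The members and the 11 pathway lists (178 symbols, 113 of them on the array) were chosen with earlier results of these data known. The rule for names allows all ligands, receptors, kinases, STAT and IRF genes, the 3 highest and 3 lowest for LPS and for TSA in the other lists, and 5 nearest profiles per member. Not every gene it allows is named. Genes named beside counts of 5 or fewer, the examples among markers and Parp14 were chosen after their values were seen. Promoters are RefSeq's (GRCm38.p6). The labels do not say that arrays are separate cultures. The p-values thus reflect no more than the spread among these 6 arrays, taken mostly from other genes. The number of arrays limits the precision.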

Additional observations from a re-analysis of the deposited data

Results flagged for a closer look

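Some differences of the same treatment pointed in opposite directions on different backgrounds, each read from single arrays. For Irf1 the log2 difference with TSA was 0.79 without LPS, 0.11 with LPS and -0.018 with GW3965 and LPS. For Stat2 it was -0.54 without LPS, -0.93 with LPS and 0.24 with GW3965 and LPS. The LPS by TSA term did not pass for either gene (limma adjusted p = 1.0 for both), and the dependence of TSA on GW3965 was not tested.

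The difference with GW3965 also changed sign. In cells with LPS it was -0.86 for Irf8 and -0.99 for Stat2, and in cells with TSA and LPS it was 0.46 for Irf8 and 0.18 for Stat2. These differences were not tested against each other.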

How the results depend on the processing

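Of 305 single-gene estimates under 15 alternatives, 277 kept direction and side of the threshold, 14 no longer passed and 5 newly passed. Another 9 changed sign, none of which passed either way. Much of the kept direction was fixed beforehand. The changed filters, the averaging of probes, the fit without trend and the robust prior leave each member's estimate as it was, so only its adjusted p could move. A changed floor leaves genes above it as they were, and leaving out either GW3965 array does so for the LPS estimates. The sign changes were Irf1 with TSA and LPS present (-0.13 after quantile normalization, -0.14 after cyclic loess), Stat2 for the LPS by TSA term (-0.35 at the median floor), and GW3965 estimates with an array left out. The last were Irf1 at 0.14 without TSA + GW3965 + LPS, Irf8 at 0.16 and Stat2 at 0.083 without GW3965 + LPS, and Irf1 at 0.037, Irf8 at 0.42 and Ifng at 0.0083 without LPS. With each array left out in turn, the lowest GW3965 estimates were -0.34 for Irf1, -0.83 for Irf8, -0.89 for Stat2 and -1.11 for Ifng. All 5 members rose with LPS, 2 fell and 0 rose with TSA, 3 fell with TSA where LPS was present, and 0 passed for GW3965. With values floored at the array median these counts were 3 for LPS, 0 for TSA and 0 for TSA with LPS present. Over all 5080 genes limma then called 445 higher and 205 lower for LPS, and 241 higher and 100 lower for TSA. For TSA with LPS present it called 0 of all 5080 genes, and its prior degrees of freedom were 2.44. Restricted to genes at or above the median on all 6 arrays, which leaves out Stat2 and Ifng, 3 members were called for LPS and 1 for TSA. Of the 3881 genes kept there, 460 rose and 230 fell with LPS, and 459 rose and 317 fell with TSA. Leaving out 1 array at a time gave 4 to 5 members for LPS, 0 to 3 for TSA (0 without LPS, 1 without TSA + LPS, 3 without TSA or without No treatment) and 0 to 1 for GW3965 (1 without TSA + LPS). Without TSA or without No treatment, each TSA estimate is the mean of the pairs with LPS, so these fits repeat the same estimates. In every fit with an array left out, except that without TSA + LPS, the error came wholly from the intensity trend. Over all 5080 genes, 557 rose and 383 fell with TSA on all 6 arrays. These numbers were 652 and 287 without the LPS array and 632 and 293 without TSA + LPS. They were 372 and 286 without the TSA array, and 377 and 278 without No treatment. For GW3965 they were 16 and 39 without TSA + LPS. At the median floor the Ifng log2 difference of TSA + LPS over TSA, 1.98 otherwise, was -0.0067, since both arrays then sit at their floors. The fit with the LPS by TSA term leaves no residual when an array is dropped, so it was not run so. By size, members at least 2-fold apart in GW3965 + LPS against LPS numbered 0, and 1 after quantile normalization. At 1.5-fold in place of 2-fold, the count for TSA without LPS was 2 in place of 0, with Irf1 higher and Irf8 lower. Lower members numbered 4 in place of 2 for TSA with LPS, and 2 in place of 1 for TSA with GW3965 and LPS. For GW3965 with LPS they numbered 4 in place of 0, where 7.18% of measured genes were lower by that much. For the TSA pairs the share of all measured genes at 1.5-fold was not taken, so those counts lack a baseline. Averaging the probes of a gene changed no member's call or estimate, since each has 1 probe, though adjusted p-values moved. The cause of other changes was not tested. No paired analysis was possible because each group has 1 array. Ifng and Stat2 near background limit their folds.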

Other observations

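Signalling genes above the IRF step and inhibitors below it were also read. Of 12 sensing genes on the array 10 were tested and 7 rose with LPS, among them the viral RNA sensor Ifih1 by 4.72 (SE 0.30), the LPS co-receptor Cd14 by 3.30 and the double-stranded RNA receptor Tlr3 by 2.56. With TSA 3 fell and 0 rose, namely the kinase Irak1 by 1.02 (SE 0.21), the adaptor Myd88 by 0.96 and Cd14 by 0.83. Of 13 negative regulators 10 were tested and 5 rose with LPS, led by Socs1 by 3.73, Socs3 by 3.70 and Trim30a by 3.39. With TSA 3 fell and 0 rose, the phosphatase genes Ptpn1 by 1.47 (SE 0.22) and Ptpn6 by 1.03, and Socs1.

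Of 16 myeloid genes related to Irf8 12 were tested. With LPS 4 rose, the transcription factors Batf by 2.37 (SE 0.25) and Cebpb by 2.31, the lineage factor Spi1 by 1.01, and Ctsc. With TSA Batf fell by 0.83 and Klf4 rose by 0.67. Spi1, the usual DNA-binding partner of Irf8, did not pass for TSA.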
